A study of Mus musculus with 12 samples.

Results

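The kinases of the mitogen-activated protein (MAP) kinase cascade were followed in gastrocnemius muscle of mice that had received feces from sedentary or from treadmill-trained donors. Members were chosen by name: every transcript cluster (the probe set of 1 gene on the array) whose only annotated symbol was Mapk, Map2k, Map3k or Map4k followed by a number. This rule gave 40 transcript clusters of 38 genes, out of 28944 transcript clusters and 19938 genes with 1 symbol on the array. The RefSeq gene table holds 43 such symbols, and 5 of them were not analysed here.

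Samples came from 12 male germ-free ICR mice (Tsl;ICR[GF], labelled as 11 weeks old), which all ate a high-fat diet. RS denotes 6 recipients gavaged with feces of sedentary ICR donors, and RT denotes 6 recipients gavaged with feces of treadmill-trained ICR donors, both killed at week 1 after a fast. Recipients of a group shared cages and an identical fecal sample, so a cage or fecal sample effect and donor training cannot be told apart. RNA of each muscle (250 ng) was hybridized to 1 Affymetrix Mouse Gene 1.0 ST array, and every value below is a log2 signal after RMA normalization, a level on an arbitrary scale that is comparable between mice for 1 gene but not between genes.

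In the cascade, a MAP3 kinase phosphorylates a MAP2 kinase, which phosphorylates a MAP kinase, and MAP4 kinases act on MAP3 kinases. The classical extracellular signal-regulated kinase (ERK) branch responds mainly to growth factors through RAS and RAF. The c-Jun N-terminal kinase (JNK) and p38 branches respond mainly to cytokines, oxidants and mechanical stress, and in skeletal muscle contraction engages all 3 branches. These kinases are switched by phosphorylation, which an array does not measure, so the values describe mRNA abundance and not kinase activity. In whole muscle, fewer cells of a type and less RNA per cell cannot be told apart.

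Of the 38 genes, 6 were called higher in RT (Mapk6, Map3k3, Mapk9, Mapk8, Map2k1 and Map4k4) and 3 were called lower (Mapk10, Map3k14 and Mapk13). A gene counted as called where limma, fitted over all transcript clusters, gave p under 0.05 before adjustment and under 0.1 after Benjamini-Hochberg adjustment. Over the whole array, 11.9% of transcript clusters were called higher and 13.0% lower, so 6 of 38 and 3 of 38 are near the background. The remaining 29 genes did not pass. An unadjusted p under 0.05 in limma was found for 11 of the 38 genes, beside 9423 of the 28944 transcript clusters on the array. The median log2 change (RT minus RS) of the 38 genes was 0.03, beside -0.01 over all transcript clusters, and single changes ran from -0.31 to 0.445. Changes were thus small: the largest rise corresponds to a 1.36-fold higher signal and the largest fall to a 1.24-fold lower one. By sign alone 23 genes were higher, 14 were lower and 1 had equal means. The map of the genes in every mouse shows how the calls spread over the steps of the cascade.

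**Figure D1:**
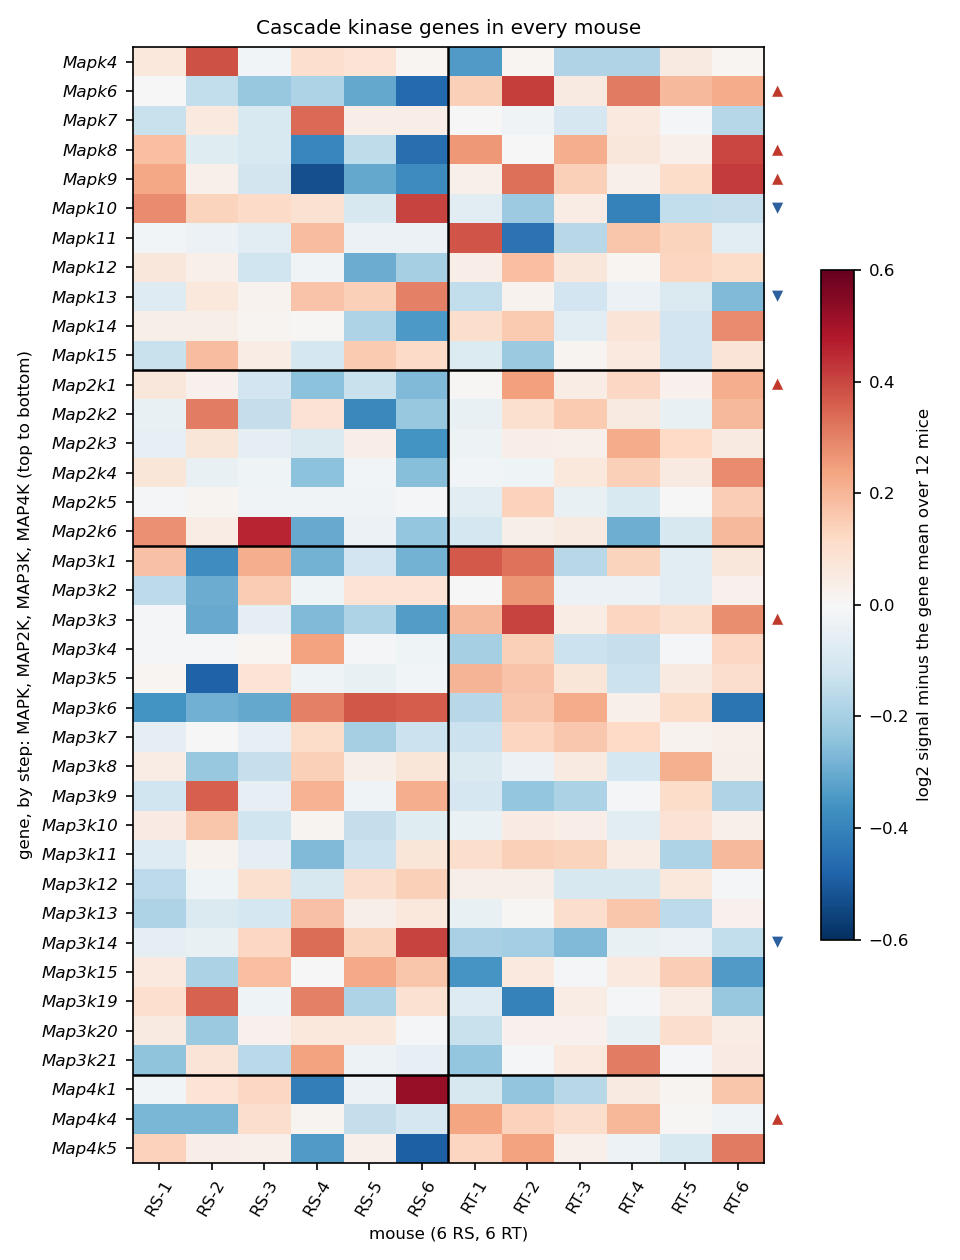
Log2 signal of the 38 kinase genes (rows, grouped from MAP kinases at the top to MAP4 kinases at the bottom) in each of the 12 mice (columns), as the difference from the mean of each gene over the 12 mice, with red above and blue below that mean. Upward triangles mark the 6 genes called higher in RT and downward triangles the 3 genes called lower.

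Array libraries differed in overall shape. Signals spread less on the arrays of RS-4 and RS-6 (SD over all transcript clusters 1.97 and 1.99) than on the remaining 10 (2.06 to 2.15), so counts are also given without those 2 mice. Muscle fiber markers marked the tissue: all 8 had mean log2 signals between 10.9 and 13.0 and 0 of 8 were called.

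Mapk6 and Map3k3 were the 2 genes whose RS and RT values did not overlap. On the array, every RT mouse lay above or below every RS mouse for 5.79% of transcript clusters, so 2 of 38 genes is near the background. Mapk6 encodes ERK3, an atypical MAP kinase that is not activated by the classical MAP2 kinases and is known as a short-lived protein that signals to the kinase MK5. Its log2 signal ran from 6.31 over a median of 6.57 to 6.78 in RS and from 6.83 over a median of 6.99 to 7.19 in RT. All 6 RT mice were above the highest RS mouse, with a log2 change of 0.445 (SE 0.090, adjusted p = 0.00541 in limma, exact permutation p = 0.00216, the smallest that 6 against 6 mice allow). Map3k3 encodes MEKK3, a MAP3 kinase that feeds the ERK5, p38 and JNK branches and is known for its role in endothelial cells. Its log2 signal was 6.13 at the lowest, 6.24 at the median and 6.45 at the highest in RS, against 6.51, 6.63 and 6.87 in RT. Again all 6 RT mice were above all 6 RS mice, with a log2 change of 0.38 (SE 0.087, adjusted p = 0.0102 in limma, exact permutation p = 0.00216).

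The sequences just upstream of these 2 genes are printed because they were the members whose groups separated completely. Each run holds 120 bases before an annotated RefSeq start (GRCm38.p6), with capitals on a GC box (GGGCGG) or a CCAAT box (CCAAT), read on either strand. Mapk6 has several annotated starts, of which the most upstream is shown (chr9:75410017-75410136, minus strand), and Map3k3 lies on the plus strand (chr11:106084467-106084586).
Mapk6: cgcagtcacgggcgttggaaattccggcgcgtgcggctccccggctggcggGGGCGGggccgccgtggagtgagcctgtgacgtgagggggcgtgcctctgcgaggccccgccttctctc
Map3k3: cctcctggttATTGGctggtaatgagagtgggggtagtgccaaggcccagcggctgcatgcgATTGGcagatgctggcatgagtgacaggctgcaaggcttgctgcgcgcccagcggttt
The Mapk6 run holds a GC box and the Map3k3 run holds 2 CCAAT boxes on the opposite strand. A RefSeq promoter window, from 250 bases before to 50 after a start, was found for 31 of the 38 genes, with 42 windows in all. A GC box stood in 25 of these 42 windows (59.5%), beside 35.7% of all 32851 windows in the table, and a CCAAT box in 12 of 42 (28.6%), beside 37.4%. Letters bound by factors that MAP kinases phosphorylate were sparse on both sides. The cAMP response element (TGACGTCA) stood in 1 window (all windows, 1.79%), the AP-1 site (TGANTCA) in 2 (all windows, 7.81%), the ETS site (CCGGAAG) in 3 (all windows, 8.86%), and the CArG box of serum response factor in 0 (all windows, 1.63%). A TATA box (TATAAA) stood in 2 windows, those of Map2k6 and Mapk10 (all windows, 13.6%). Motifs were searched on both strands, and some can share letters, since a CArG box can hold a CCAAT or a TATA box.

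Counts by step rest on few genes and stand beside 11.9% called higher and 13.0% called lower over the array. Among the 11 MAP kinases, RT was higher for 3 and lower for 2, while 6 did not pass. The JNK genes moved in both directions. Mapk8, which encodes JNK1, the JNK linked to insulin resistance in obesity, had log2 signals of 5.93, 6.26 and 6.56 (lowest, median and highest) in RS and 6.38, 6.53 and 6.78 in RT. Its groups overlapped in the lower RT and upper RS mice, and the log2 change was 0.325 (SE 0.11, adjusted p = 0.0519 in limma, exact permutation p = 0.0216). Mapk9, which encodes the widely expressed JNK2, ran from 6.00 over 6.32 to 6.76 in RS and from 6.56 over 6.66 to 6.95 in RT, a log2 change of 0.355 (SE 0.12, adjusted p = 0.0556 in limma). RS mice spread more widely than RT mice for both genes, with SDs of 0.23 and 0.28 in RS against 0.16 and 0.16 in RT. RS-4 and RS-6 were the 2 lowest RS mice for Mapk8 and Mapk9 alike. Mapk10 encodes JNK3, best known from the nervous system, and its brighter transcript cluster was lower in RT. That cluster read 3.21, 3.43 and 3.71 in RS and 2.90, 3.17 and 3.35 in RT, so 4 of 6 RT mice lay below the lowest RS mouse. The log2 change was -0.31 (SE 0.096, adjusted p = 0.0398 in limma, exact permutation p = 0.00649). Its signal was low, brighter than only 28.8% of transcript clusters, and the other transcript cluster of Mapk10 changed by -0.09 (SE 0.11, adjusted p = 0.57 in limma).

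Of the p38 genes, only Mapk13 was called. Mapk13, which encodes p38 delta, ran from 4.05 over 4.23 to 4.43 in RS and from 3.86 over 4.03 to 4.15 in RT. The log2 change was -0.21 (SE 0.082, adjusted p = 0.0888 in limma), and 4 of 6 RT mice were below every RS mouse. Mapk12, which encodes p38 gamma and is known for its abundance in skeletal muscle, missed the adjusted threshold with a log2 change of 0.18 (SE 0.080, unadjusted p = 0.0385, adjusted p = 0.131 in limma). With the one-way ANOVA that the methods describe in place of limma, Mapk12 was called higher. Mapk9 was then not called (adjusted p = 0.107 in that ANOVA). Mapk14, which encodes p38 alpha, the main p38 kinase, changed by 0.15 (SE 0.093, adjusted p = 0.284 in limma). Mapk11, which encodes p38 beta, had equal means, although its RT mice ran from 3.54 to 4.36 and its RS mice only from 3.92 to 4.17. Among the atypical and remaining kinases, Mapk4, which encodes ERK4, the closest relative of ERK3, differed from Mapk6 in sign, with a log2 change of -0.21 that missed the adjusted threshold (SE 0.092, unadjusted p = 0.0377, adjusted p = 0.129 in limma). Mapk7, which encodes ERK5, changed by -0.08 (SE 0.086) and Mapk15, which encodes ERK7, by -0.09 (SE 0.085), and neither passed.

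**Figure D2:**
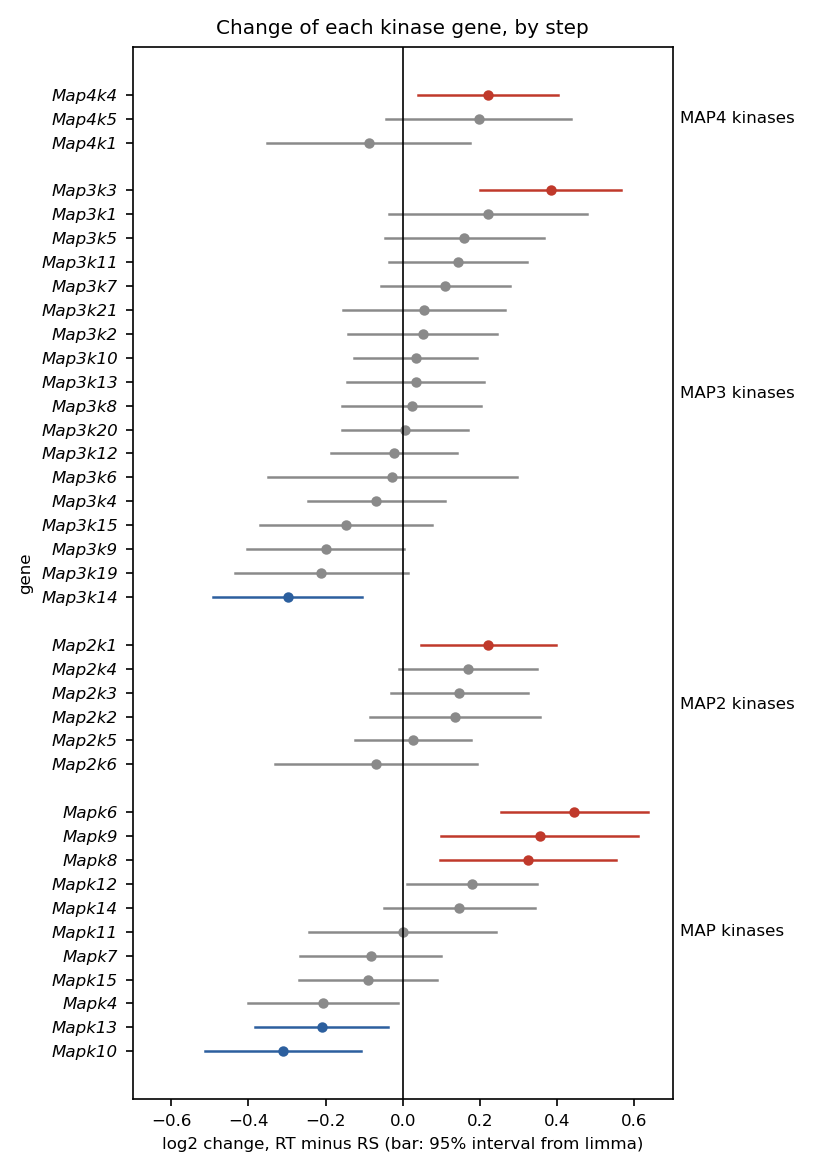
Log2 change (RT minus RS) of each kinase gene with its 95% interval from limma, grouped by step of the cascade and sorted within a step. Red points are the 6 genes called higher, blue points the 3 called lower and gray points the 29 that did not pass; no interval leaves the range from -0.6 to 0.7.

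At the MAP2 kinase step, 1 of 6 genes was called higher and 0 lower. Map2k1 encodes MEK1, which activates the classical ERKs. Its log2 signal was 6.55 at the lowest, 6.69 at the median and 6.88 at the highest in RS and 6.82, 6.90 and 7.06 in RT. The groups overlapped, with 3 of 6 RT mice above every RS mouse, and the log2 change was 0.22 (SE 0.083, adjusted p = 0.0774 in limma, exact permutation p = 0.0195). Its partner Map2k2, which encodes MEK2, changed by 0.14 (SE 0.10, adjusted p = 0.378 in limma). Map2k4, which activates both JNK and p38 kinases, changed by 0.17 (SE 0.084, adjusted p = 0.173 in limma), and Map2k3, a p38 activator, by 0.15 (SE 0.084, adjusted p = 0.236 in limma). Map2k5, the activator of ERK5, changed by 0.03 (SE 0.071), and Map2k6, the other p38 activator, by -0.07 (SE 0.12). The median of the step was 0.14.

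The MAP3 kinase step was the largest, with 18 genes, of which 1 rose, 1 fell and 16 did not pass. Besides Map3k3, the called gene was Map3k14, which encodes NIK, the kinase that starts noncanonical NF-kappaB signaling. Map3k14 ran from 4.79 over 4.98 to 5.25 in RS and from 4.58 over 4.68 to 4.81 in RT. In RT 4 of 6 mice were below every RS mouse, and the log2 change was -0.30 (SE 0.092, adjusted p = 0.0388 in limma, exact permutation p = 0.013). RS-4 and RS-6 were the 2 highest RS mice for Map3k14, as they were for Mapk13. The other MEKK genes did not pass: Map3k1 changed by 0.22 (SE 0.12), Map3k2 by 0.05 (SE 0.092) and Map3k4 by -0.07 (SE 0.084). Map3k7, which encodes TAK1, a hub below cytokine and Toll-like receptors, changed by 0.11 (SE 0.079, adjusted p = 0.348 in limma). The apoptosis signal-regulating kinases, which respond to oxidants, did not pass either, with 0.16 for Map3k5, -0.03 for Map3k6 and -0.15 for Map3k15. For Map3k6 the RS mice fell into a lower and an upper cluster, since RS-1, RS-2 and RS-3 read 5.17, 5.24 and 5.22 and RS-4, RS-5 and RS-6 read 5.83, 5.90 and 5.89. The mixed-lineage kinases changed by -0.20 (Map3k9), 0.03 (Map3k10), 0.14 (Map3k11) and 0.055 (Map3k21), and the related dual leucine zipper kinases by -0.02 (Map3k12) and 0.03 (Map3k13). Both transcript clusters of Map3k12 were within their error of 0. Map3k8, which encodes TPL2, a kinase of the inflammatory ERK response, changed by 0.02 (SE 0.086). Map3k20, which encodes the ribosome stress sensor ZAK and is known for a role in muscle fibers, changed by 0.01 (SE 0.077), the smallest change other than that of Mapk11. Map3k19 changed by -0.21 (SE 0.11, adjusted p = 0.177 in limma).

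Of the 3 MAP4 kinases, 1 was higher and 2 did not pass. Map4k4, which encodes HGK, a kinase known as a brake on insulin-stimulated glucose uptake, had log2 signals of 6.07, 6.22 and 6.45 in RS and 6.32, 6.465 and 6.58 in RT. The log2 change was 0.22 (SE 0.086, adjusted p = 0.087 in limma, exact permutation p = 0.0238), and 3 of 6 RT mice were above every RS mouse. Map4k5 changed by 0.20 (SE 0.11, adjusted p = 0.238 in limma), and Map4k1, the hematopoietic MAP4 kinase, by -0.09 (SE 0.12).

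**Figure D3:**
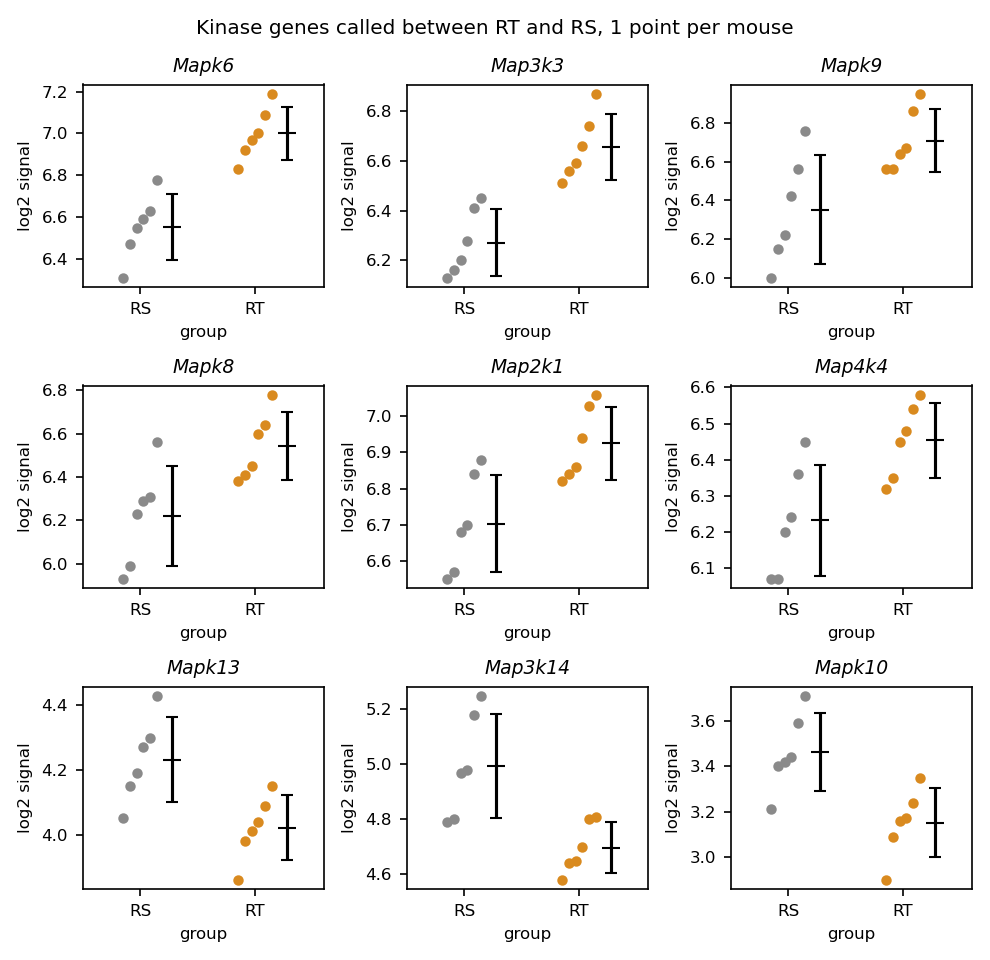
Log2 signal of the 9 called kinase genes in each mouse (1 point per mouse, sorted by value; the bar beside them is the mean with the SD of 6 mice). For Mapk6 and Map3k3 every RT mouse is above every RS mouse, and for the other 7 genes the groups overlap.

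Kinases of the same step were compared pairwise to see whether their changes differed. Per mouse, the log2 signal of Map2k2 was subtracted from that of Map2k1, and the difference moved by 0.085 between the groups (SE 0.098, exact permutation p = 0.411). Mapk8 and Mapk9 changed by nearly the same amount, with a difference of -0.03 (SE 0.089, exact permutation p = 0.764). For Mapk14 and Mapk12 the difference was -0.03 (SE 0.075, exact permutation p = 0.703). For Map2k3 and Map2k6 it was 0.215 (SE 0.15, exact permutation p = 0.195). None of the 4 differences passed (p = 0.764 for each after Benjamini-Hochberg adjustment, exact permutation tests), and with these errors equal changes are not shown. A call for Map2k1 without one for Map2k2 therefore does not show that the MEK genes differed.

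The direction of a change went with the signal of the gene. Taking the median signal of the array (log2 4.49) as a boundary, 27 kinase genes were brighter, and of these 6 were called higher and 1 lower, with a median log2 change of 0.14. By step, 6 of 11 MAP kinases, 6 of 6 MAP2 kinases, 13 of 18 MAP3 kinases and 2 of 3 MAP4 kinases were brighter. On the array, 22.9% of the brighter genes with 1 symbol were called higher and 6.82% lower, with a median of 0.10. The 11 dimmer kinase genes held 0 called higher and 2 called lower, with a median of -0.15. Of the dimmer genes with 1 symbol, 3.42% were called higher and 15.2% lower, with a median of -0.085. Mapk8, Mapk9 and Mapk14 lay on the brighter side of the boundary, and Mapk10 and Mapk13 on the dimmer side. Transcript clusters were also sorted by signal into 20 equal bins, a description added after the data were seen. Only Mapk6 lay above the 90th percentile of the changes in its bin (0.445 against a percentile of 0.40 and a bin median of 0.16), and 0 of 38 lay below the 10th percentile. Map3k3 came close, with 0.38 against 0.40, and Map3k14 was the gene farthest below its bin median, at -0.30 against a median of -0.035 and a 10th percentile of -0.33. Mapk10, Mapk13 and Map2k1 lay within 0.19 of their bin medians, which were -0.12, -0.135 and 0.16. The part of signal-dependent shifts in these calls was not tested.

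**Figure D4:**
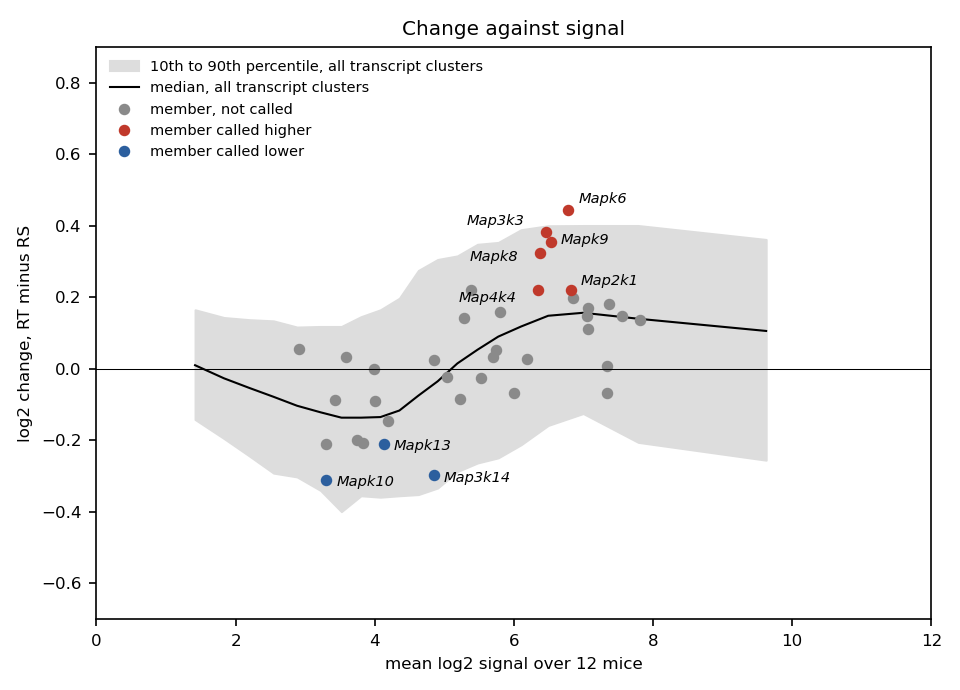
Log2 change (RT minus RS) of the 38 kinase genes against their mean log2 signal over 12 mice, over the median (line) and the 10th to 90th percentile (gray band) of all transcript clusters in 20 bins of signal. The line lies at 0.01 in the dimmest bin, below 0 for bins with a mean signal from 1.83 to 4.90 and above 0 from 5.19 upward. Mapk6 is the only kinase gene outside the band.

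Calls depended on the scaling between arrays and on which mice were kept. After cyclic loess between arrays, 9.57% of transcript clusters were called higher and 9.73% lower, and of the kinases Mapk6 (0.31) and Map3k3 (0.26) were still higher and Map3k14 (-0.26) was still lower. When the mice RS-4 and RS-6 were dropped, 5.70% and 6.19% of transcript clusters were called higher and lower, and only Mapk6 (0.39) and Map3k3 (0.33) were called among the kinases. The other called genes kept their sign without these mice, at 0.20 for Mapk8, 0.22 for Mapk9, 0.15 for Map2k1, 0.26 for Map4k4, -0.19 for Map3k14, -0.26 for Mapk10 and -0.14 for Mapk13. Map4k4 lost its call although its change was larger than the 0.22 in all mice (unadjusted p = 0.0154, adjusted p = 0.113 in limma). Fewer mice also lower the precision, and the part of this in the lost calls was not tested. With the SD of each array as a covariate, 2.53% and 3.07% of transcript clusters were called, and Mapk6 (0.36) was the only kinase called. Array SDs ran from 1.97 to 2.13 in RS and from 2.08 to 2.15 in RT. The covariate is thus partly shared with the group and can take up part of a group difference, which was not tested. RS-4 and RS-6 were the 2 lowest RS mice for 3 of the 6 genes called higher (Mapk8, Mapk9 and Map2k1) and the 2 highest for 2 of the 3 called lower, beside 7 and 4 of all 38 genes.

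**Figure D5:**
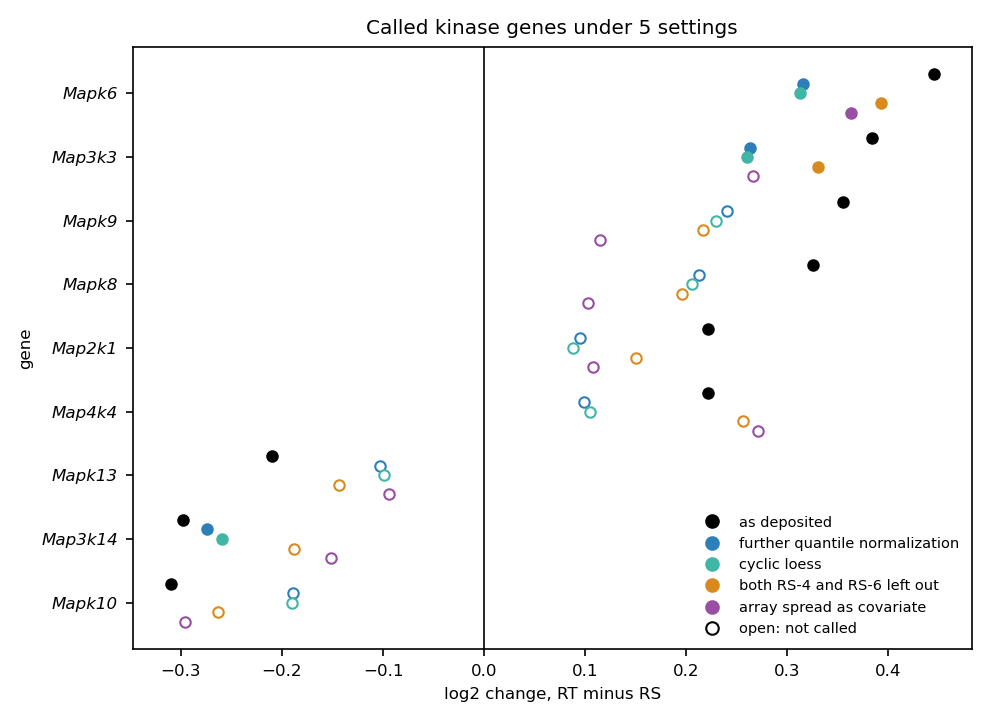
Log2 change (RT minus RS) of the 9 called kinase genes with the deposited values and under 4 alternatives, with filled points where the gene was called and open points where it was not. Mapk6 is filled under all 5 settings, Map3k3 under 4 and Map3k14 under 3, and no gene crosses 0.

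Around the kinases, 8 lists of genes known from textbooks for feeding, holding, ending or carrying out MAP kinase signaling were read with the same test. Of their 110 measured genes, 35 were higher and 10 lower, and 97 of the 110 were brighter than the array median, where 22.9% of genes were higher. Counts were 15 higher and 9 lower after cyclic loess, and 47 higher and 7 lower after median centering of the arrays. With the mice RS-4 and RS-6 dropped, 10 were higher and 3 lower. Upstream, the RAS and RAF step held 7 higher and 3 lower among 20 genes. The small GTPase Rras rose most, by 0.62 (SE 0.13, adjusted p = 0.00553 in limma), from a range of 6.35 to 7.10 in RS to one of 7.24 to 7.66 in RT, without overlap. The nucleotide exchange factor Rasgrp3 (0.39) and the RAF-activating scaffold Shoc2 (0.29) also rose. The falls were those of dim genes, the scaffold Ksr2 (-0.30) and the exchange factors Rasgrp1 (-0.28) and Rasgrf1 (-0.25). After cyclic loess 2 genes of this step were higher and 0 lower.

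Of the 12 stress inputs and adaptors, 5 were higher and 0 lower. The largest rises were those of Txn1 (0.46), the thioredoxin that restrains Map3k5, and of the TAK1 adaptors Tab2 (0.41) and Tab3 (0.35). Of these inputs 3 were higher after cyclic loess, 2 with the mice RS-4 and RS-6 dropped and 1 with the array SD as a covariate. Among 6 related kinases outside the naming rule, Taok1 (0.27) and Taok2 (0.25), which act as MAP3 kinases, were higher, but 0 of 6 were called after cyclic loess, where the median was 0.06 in place of 0.17. Of 12 scaffolds, 4 were higher, led by the ERK anchor Pea15a (0.46), Arrb1 (0.30) and Lamtor2 (0.29), and the JNK scaffold Mapk8ip2 was lower (-0.335). After cyclic loess 1 scaffold was higher and 1 lower, and with the mice RS-4 and RS-6 dropped 1 was higher and 0 lower.

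Downstream, the 16 phosphatases held 4 higher and 2 lower genes. Dusp6, an ERK phosphatase that ERK itself induces, rose by 0.34 (SE 0.12, adjusted p = 0.0598 in limma), from 5.50 to 6.12 in RS to 6.02 to 6.63 in RT. Dusp7 (0.34) and Ppm1d (0.30) rose, while Dusp9 (-0.345) and Dusp5 (-0.34) fell. Dusp1, the stress-induced phosphatase of JNK and p38, changed by 0.21 (SE 0.12, adjusted p = 0.223 in limma). After cyclic loess 0 phosphatases were higher and 2 lower. None of the 8 effector kinases was called in limma and 0 of 8 had an unadjusted p under 0.05, with a median of 0.03, whereas cyclic loess called 2 of them lower.

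Transcription factors that MAP kinases phosphorylate moved in both directions, with 8 higher and 3 lower among 21 (median 0.10). They held 6 higher and 3 lower after cyclic loess (median -0.04), 3 and 1 with the mice RS-4 and RS-6 dropped, and 2 and 0 with the array SD as a covariate. Ets2 (0.47), Mef2a (0.46), a factor of muscle genes, and Elk4 (0.46) rose most. The falls were all in the Fos family: Fos changed by -0.515 (SE 0.17, adjusted p = 0.0553 in limma), Fosb by -0.40 and Fosl1 by -0.35. Fos ran from 5.06 over 5.31 to 6.12 in RS and from 4.33 over 4.94 to 5.33 in RT, so the groups overlapped. Jun, the JNK substrate, changed by 0.10 (SE 0.13, adjusted p = 0.627 in limma). Among 15 genes that ERK signaling induces, 5 were higher and 1 lower. Cyclic loess left 3 and 1, dropping those mice 2 and 0, and the covariate 1 and 0. Etv1 (0.54), the feedback inhibitor Spred2 (0.48) and the cyclin Ccnd1 (0.43) rose and Etv4 (-0.33) fell, and Egr1 changed by -0.13 (SE 0.23, adjusted p = 0.718 in limma), with RT mice from 4.42 to 6.08.

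Marker lists of cells other than muscle fibers had positive median changes, except that of lymphocytes (median log2 change -0.12). Of 12 macrophage markers 10 were higher in RT (median log2 change 0.795), and the log2 of their summed linear signals ran from 8.35 to 9.15 in RS and from 9.29 to 9.80 in RT. Fibroblast and matrix markers were higher for 9 of 10 (median 0.79, summed 11.2 to 12.3 in RS and 12.2 to 12.6 in RT), endothelial markers for 7 of 11 (median 0.46, summed 9.85 to 10.3 and 10.4 to 10.7), smooth muscle and pericyte markers for 5 of 8 (median 0.42, summed 9.58 to 10.2 and 10.2 to 10.6) and adipocyte markers for 4 of 7 (median 0.48, summed 9.07 to 9.59 and 9.51 to 9.92). Adipoq was highest in RT-1 and RT-6 (5.62 and 6.01, other RT mice 3.77 to 4.48), as was Retn (5.96 and 6.13, other RT mice 4.72 to 5.08). Lep and Plin4 did not have these mice as their 2 highest of RT. Of 11 lymphocyte markers, 1 was higher and 2 lower (summed 7.03 to 7.23 in RS and 7.01 to 7.12 in RT), and cyclic loess called 2 higher and 0 lower. By sign alone 4 of the 11 were higher and 7 lower. The list held Ptprc, which is not specific to lymphocytes and ran from 4.42 to 4.62 in RS and from 4.67 to 4.87 in RT. With the mice RS-4 and RS-6 dropped, the counts called higher were 9 for macrophage, 7 for fibroblast and matrix (median 0.50), 4 for endothelial, 4 for smooth muscle and pericyte and 3 for adipocyte markers. With the array SD as a covariate they were 6, 2 (median 0.50), 2 (median 0.25), 4 and 1, in the same order. The part of these shifts in the kinase values was not tested.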

How the data were processed

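Gene expression was measured in 12 muscles, 1 array each. The authors deposited log2 signals per transcript cluster, normalized with RMA (the methods name both RMA and SST-RMA, and the software differs between their paragraphs). The genome build is not given in the sources used here. Values ran from 0.53 to 13.67, with array medians of 4.40 to 4.63. The number of arrays limits the precision. Platform annotation gave 1 symbol to 21789 transcript clusters, several to 1621 and none to 5534. A model with the group as its only term was fitted to 28944 transcript clusters with limma 3.58.1 under R 4.3.3 (lmFit, then eBayes), two-sided, with the threshold that the methods give. The brightest transcript cluster stood for a gene. Exact permutation tests covered all 924 splits of 6 against 6 mice. The code was tested on simulated data. Values in every mouse were given for members called without overlap and the largest called rise and fall of each step, and up to 3 genes per direction were named in each surrounding list, besides Dusp1, Dusp6, Fos, Jun and Egr1. The other called members were added. Members and lists were chosen with earlier results of these data known. Of 6 pairs planned, 4 were tested, since genes of the others were not analysed here. Replicate numbers belong to different mice, so p-values measure the spread between mice.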

Additional observations from a re-analysis of the deposited data

Results flagged for a closer look

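In 8 of 76 groups of 6 mice, a single mouse stood apart from the other 5 by more than the 95% critical ratio of Dixon's test allows, where chance gives about 1 in 20. None of these 8 groups belongs to a called gene. RS-2 was concerned in 4 of them: Mapk4 was highest there at 4.22 (others 3.82 to 3.94), Map2k5 was highest at 6.21 (others 6.17 to 6.18), Map3k5 was lowest at 5.31 (others 5.75 to 5.88) and Map3k20 was lowest at 7.12 (others 7.34 to 7.41). RS-4 was highest for Mapk11 at 4.17 (others 3.92 to 3.97) and for Map3k4 at 6.24 (others 5.97 to 6.01). RS-6 was lowest for Map2k3 at 7.20 (others 7.47 to 7.63). In RT, RT-2 was highest for Map3k2 at 6.01 (others 5.68 to 5.77).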

How the results depend on the processing

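Of 6 higher and 3 lower, a further quantile normalization and cyclic loess each left 2 and 1, and median centering of the arrays gave 10 and 1. The whole array moved too. Of 28944 transcript clusters, 3445 were higher and 3764 lower as deposited. Quantile normalization gave 2785 and 2757, cyclic loess 2770 and 2816, and median centering 5883 and 2414. Dropping RS-4 together with RS-6 gave 2 and 0, the array spread as a covariate gave 1 and 0, and an adjusted p under 0.05 left 2 and 2. Leaving out each mouse in turn gave 2 to 6 higher, with 2 without RS-6 and 3 without RS-4, RS-5, RT-2 or RT-6, and 2 to 4 lower. Over the array, these fits called from 2360 higher and 2564 lower (without RT-6) to 4573 and 4806 (without RS-1). Mapk6 kept its call under all 24 alternatives, Map3k3 under 23, Map3k14 under 22, Mapk10 under 18 of the 23 that tested it, Mapk8 under 16, Mapk9 under 13, Map2k1 under 11, Map4k4 under 10 and Mapk13 under 6, and none of the 9 changed sign. Genes that were not called changed sign in up to 8 cases (cyclic loess). The median change of the kinases stayed between 0.007 and 0.11. Of 110 surrounding genes, 35 were higher and 10 lower. Quantile normalization gave 18 and 9, cyclic loess 15 and 9, leaving out RS-4 and RS-6 10 and 3, and the array spread 6 and 0. Median centering raised the counts called higher, with 47 and 7. Leaving out 1 mouse at a time gave 25 (without RT-6) to 40 (without RS-1) higher and 7 (without RS-6) to 13 (without RS-1) lower. Replicate numbers did not pair the mice (correlations of same-numbered mice from -0.24 to 0.11, 0 of 6 best with their own number), and a replicate block gave 4 higher and 2 lower kinases. Over the array, that block gave 2873 higher and 3174 lower transcript clusters. The causes of these shifts were not tested.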
